A study of Mus musculus with 9 samples.

Results

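The STAT factors and their SOCS feedback genes were followed in neutrophils sorted from chemically induced skin lesions of mice and from the skin around them. STAT proteins are transcription factors that cytokine receptors switch on through Janus kinases, and SOCS proteins, among them the product of Cish, are made in response and bind receptors or kinases to dampen the same signal. In neutrophils this pathway carries the signals of G-CSF, GM-CSF, the IL-6 family and interferons. The genes were Stat2, Stat3, Stat4, Stat5a, Stat6, Socs1, Socs2, Socs3 and Cish, and each was measured by all array probes, other than controls, that carry one of these names in the scanner files. This gave 15 probes of 9 genes, of 55681 probes and 34797 gene names in all. Of these 15 probes, 8 measured STAT genes and 7 measured SOCS genes.

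Mice of the FVB/N strain received DMBA, a mutagen, at 6 and 13 weeks of age and PMA, a tumor promoter, from week 1 to week 18 to 20, which gives rise to benign papillomas and then to carcinomas. Gr-1bright neutrophils were sorted from papillomas (3 arrays), from tumors (2 arrays), from skin next to papillomas (papilloma skin, 2 arrays) and from skin next to tumors (tumor skin, 2 arrays). All groups carried the DMBA and PMA treatment, so that no group held neutrophils of untreated skin. Each array held RNA pooled from several mice and the arrays were the replicates, so that p-values measure the spread between pools.

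Levels are values of the deposited table, which gives 1 log2 value per probe and array, and tests are limma tests with Benjamini-Hochberg adjustment over all 55681 probes, called at an adjusted p of at most 0.05. The neutrophil genes S100a8, S100a9 and Csf3r were well above background on all 9 arrays. Their group means were 17.90 to 18.20, 18.51 to 18.60 and 16.68 to 16.84. They belong to a list of 9 neutrophil markers, of which 4 were lower in tumor than in tumor skin. In papilloma, 3 of the 9 were lower than in papilloma skin. Of the 15 probes, 14 were well above background on all 9 arrays and none was saturated. The exception, the Socs2 probe A_55_P2072586, was well above background on 4 of 9 arrays. This flag says little on papilloma skin 1, tumor skin 1 and tumor 1, where at least 90.7% of all probes passed it. On the other 6 arrays at most 63.6% did. The Socs2 probe passed on those weakly separating arrays and on papilloma 3. A few arrays stood apart. In the scanner files the spike-in slope was 0.678 for papilloma skin 1, 0.876 for tumor skin 1 and 0.894 for tumor 1, against 1.04 to 1.06 on the other 6 arrays. The table's columns papilloma skin 1 and tumor 1 ranked probes like the scanner file of their own label with a Spearman rho of 0.588 and 0.827, and like that of tumor 2 with 0.924 and 0.947, while those of papilloma 2 and papilloma 3 each ranked most like the other's file (0.981 and 0.959). The calls are therefore given with and without papilloma skin 1 and tumor 1, and values of the scanner files after quantile normalization and ComBat are set beside those of the table where the direction differed. The slide of a column was taken from the scanner file of the same label. Slide terms and within-slide differences of the table therefore rest on labels that these ranks leave uncertain. Between the sources, 3 of 15 member probes had opposite signs in tumor versus tumor skin, 2 in papilloma versus papilloma skin, 3 between the lesions and 7 between the skins.

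The regulatory sequence at the start of Cish and Socs3 is shown because, of the genes higher in lesions, these held the palindrome TTCNNNGAA, which STAT dimers are known to bind. Socs1 was also higher in lesions, and its window held no match. The windows span 250 bases before and 50 bases from the start site on, 5′ to 3′ on the gene's strand, from RefSeq on GRCm38.p6, and capitals mark each match to TTCNNNGAA or to TTCNNNNGAA, the longer spacing known for STAT6.
Cish, chr9:107296409-107296708, plus strand: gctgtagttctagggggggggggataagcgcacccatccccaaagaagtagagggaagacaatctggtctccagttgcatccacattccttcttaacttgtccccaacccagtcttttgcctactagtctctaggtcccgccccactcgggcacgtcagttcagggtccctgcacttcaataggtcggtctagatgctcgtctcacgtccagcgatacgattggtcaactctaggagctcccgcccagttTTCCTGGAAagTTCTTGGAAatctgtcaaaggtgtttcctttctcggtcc
Socs3, chr11:117969317-117969616, minus strand: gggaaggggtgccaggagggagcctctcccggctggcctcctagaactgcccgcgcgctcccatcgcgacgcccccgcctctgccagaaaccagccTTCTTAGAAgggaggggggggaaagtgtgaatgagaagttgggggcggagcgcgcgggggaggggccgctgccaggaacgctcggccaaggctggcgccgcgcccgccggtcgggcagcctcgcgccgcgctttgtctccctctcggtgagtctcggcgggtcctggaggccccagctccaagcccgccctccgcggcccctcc
The Cish window held 2 matches to TTCNNNGAA, TTCCTGGAA from the start base (position 1) and TTCTTGGAA from position 12. The Socs3 window held 1, TTCTTAGAA, whose first base lay 154 bases before the start. Both motifs read the same on either strand, and no match to one overlapped a match to the other in these windows. Of 32851 windows of this length, 8.30% held TTCNNNGAA at least once and 0.457% held it at least 2 times, while 6.95% held TTCNNNNGAA. Windows were found for 8 of the 9 genes, 10 in all, and besides these matches the only one was TTCCCTAGAA in the Stat2 window, 210 bases before the start. A match describes letters and not binding, and the windows of Socs1, Stat3, Stat4, Stat5a and Stat6 held neither set of letters.

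Whether neutrophils in a lesion differed from those in its surrounding skin was asked at each stage. Cish, Socs1 and Socs3 were higher in lesions at both stages, Cish by about 2 log2 units and the others by 1.07 to 1.55. A single STAT probe was called, for Stat6 in papillomas. In tumor versus tumor skin, 4 of 15 probes were called and all 4 were higher, beside 9.74% of all probes (5.78% higher, 3.96% lower). In papilloma versus papilloma skin, 5 of 15 were called, 4 higher and 1 lower, beside 6.35% of all probes (4.15% higher, 2.19% lower). By role, 4 of 7 SOCS probes and 0 of 8 STAT probes were called in the tumor contrast, and 4 of 7 and 1 of 8 in the papilloma contrast, with 1 STAT probe under an unadjusted p of 0.05 in each. Beside the shares of all probes called, 0 or 1 call among 8 STAT probes does not set them apart from other probes. The median log2 fold change of the STAT probes was 0.00 and 0.18, and that of the SOCS probes was 0.70 and -0.23, the latter with the 4 Socs2 probes all below 0. Without papilloma skin 1 and tumor 1, 0 of 15 probes were called in the tumor contrast by limma (6 under an unadjusted p of 0.05) and 1, Cish, in the papilloma contrast. With slide as a term in the model, Cish was the only probe called in either contrast. Of all probes, 0.381% were then called in the tumor contrast and 1.92% in the papilloma contrast. On leaving out arrays, the share of all probes called fell in both contrasts as well. Leaving out single arrays lowered the tumor count to 2 without tumor skin 2 or tumor 1 and to 1 without tumor 2. It lowered the papilloma count to 1 without either papilloma skin array, to 2 without papilloma 3 and to 3 without papilloma 1, papilloma 2 or either tumor array.

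**Figure D1:**
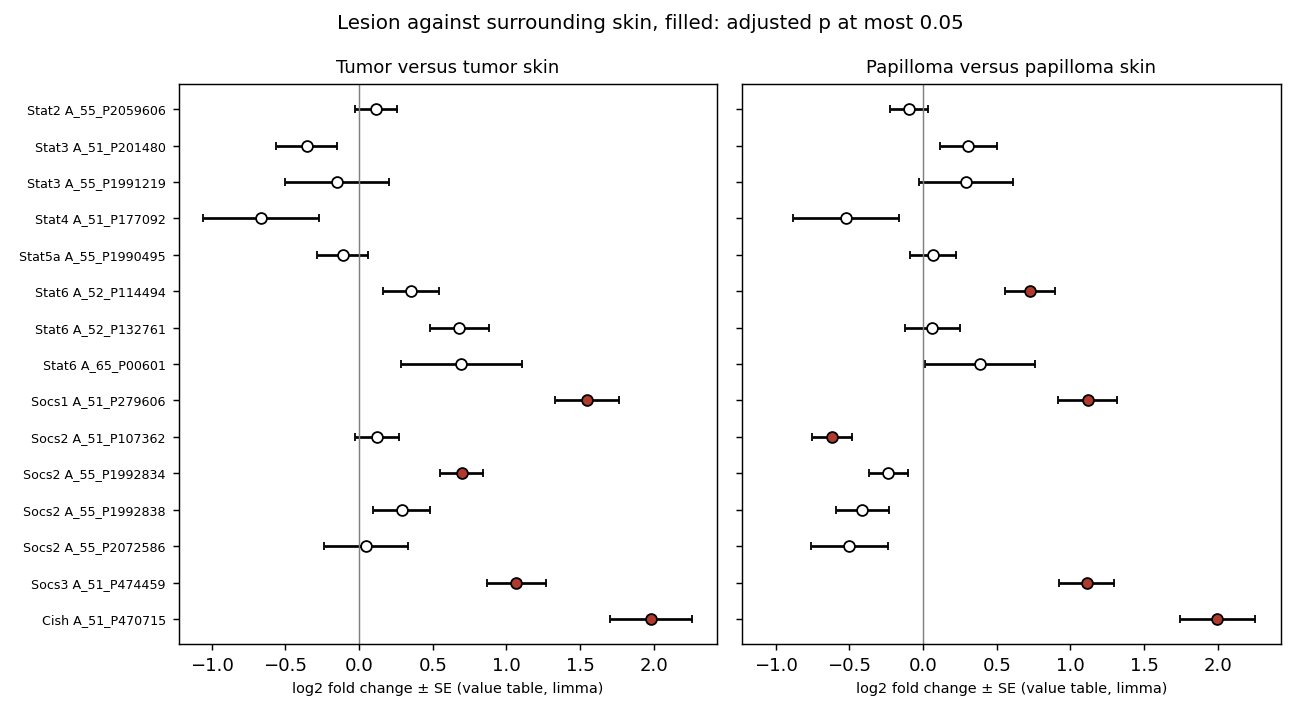
Log2 fold change with standard error (horizontal axis, value table, limma) of the 15 probes (vertical axis) in tumor versus tumor skin and papilloma versus papilloma skin, with filled points at an adjusted p of at most 0.05. Cish, Socs1 and Socs3 lie at 1.07 to 2.0 in both panels, and the 4 Socs2 probes lie above 0 in the tumor panel and below 0 in the papilloma panel.

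Cish, an inhibitor best known as a target and brake of STAT5, moved most. Its probe A_51_P470715 (mm9 chr9:107204196-107204255, plus strand) read 10.43 and 10.18 in papilloma skin, 9.50 and 9.52 in tumor skin, 12.29, 11.91 and 12.72 in papilloma, and 11.77 and 11.21 in tumor. Every lesion column lay above every skin column, and the papilloma columns lay above the tumor columns. The log2 fold change was 1.98 in tumor versus tumor skin (SE 0.280, adjusted p = 0.0064, limma) and 2.0 in papilloma versus papilloma skin (SE 0.256, adjusted p = 0.0040, limma), a fold of 3.94 and 3.99. In a bulk sample, more cells that express a gene and more RNA per cell cannot be told apart. Within slides, papilloma exceeded papilloma skin by 1.86 on slide 1 and 1.72 on slide 2, and tumor exceeded tumor skin by 2.27 on slide 1. Each of these pairs, here and for the genes below, holds a column that ranked most like a scanner file of another label. With slide as a term the values were 2.32 and 1.85, both still called. Leaving out any single array kept both calls, whereas without papilloma skin 1 and tumor 1 together the tumor contrast was 1.70 (adjusted p = 0.0550, limma) and the papilloma contrast 2.12 (adjusted p = 0.0398, limma).

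Socs1, which inhibits Janus kinases downstream of interferon receptors, was also higher in lesions. Its probe A_51_P279606 (mm9 chr16:10783951-10784010, minus strand) read 9.66 and 9.60 in papilloma skin, 9.36 and 8.85 in tumor skin, 10.48, 10.99 and 10.77 in papilloma, and 10.66 and 10.64 in tumor. Lesion and skin columns did not overlap, and the tumor columns fell inside the papilloma range. The log2 fold change was 1.55 in the tumor contrast (SE 0.217, adjusted p = 0.0062, limma) and 1.12 in the papilloma contrast (SE 0.198, adjusted p = 0.0153, limma). The tumor call was lost without tumor 2 (1.56, adjusted p = 0.0507, limma). The papilloma call was lost without papilloma skin 1 (1.15, adjusted p = 0.0719), papilloma skin 2 (1.09, adjusted p = 0.0902) or papilloma 3 (1.11, adjusted p = 0.0601, all limma). The size of the difference thus changed little while the adjusted p crossed the threshold. With slide as a term the values were 1.42 and 1.19 (adjusted p = 0.0918 and 0.0709, limma), and within slides papilloma exceeded its skin by 0.82 and 1.39 and tumor its skin by 1.30.

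Socs3, the feedback inhibitor of the IL-6 family receptor gp130 and of the G-CSF receptor, was the remaining SOCS gene that was higher in lesions. Its probe A_51_P474459 (mm9 chr11:117827480-117827539, minus strand) read 15.23 and 15.39 in papilloma skin, 15.55 and 15.07 in tumor skin, 16.21, 16.60 and 16.45 in papilloma, and 16.43 and 16.33 in tumor. The lesion columns all lay above the skin columns, while both skins overlapped and both lesions overlapped. The log2 fold change was 1.07 in the tumor contrast (SE 0.201, adjusted p = 0.0168, limma) and 1.11 in the papilloma contrast (SE 0.184, adjusted p = 0.0112, limma), a fold of 2.10 and 2.16. The tumor call was lost without tumor skin 2 (0.83, adjusted p = 0.0700), tumor 1 (1.02, adjusted p = 0.0792) or tumor 2 (1.12, adjusted p = 0.0895, all limma). The papilloma call was lost without papilloma skin 1 (1.03, adjusted p = 0.0741, limma) or papilloma skin 2 (1.19, adjusted p = 0.0521, limma). With slide as a term the values were 0.95 and 1.17 (adjusted p = 0.158 and 0.0615, limma), and within slides papilloma exceeded its skin by 0.98 and 1.21 and tumor its skin by 0.88.

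**Figure D2:**
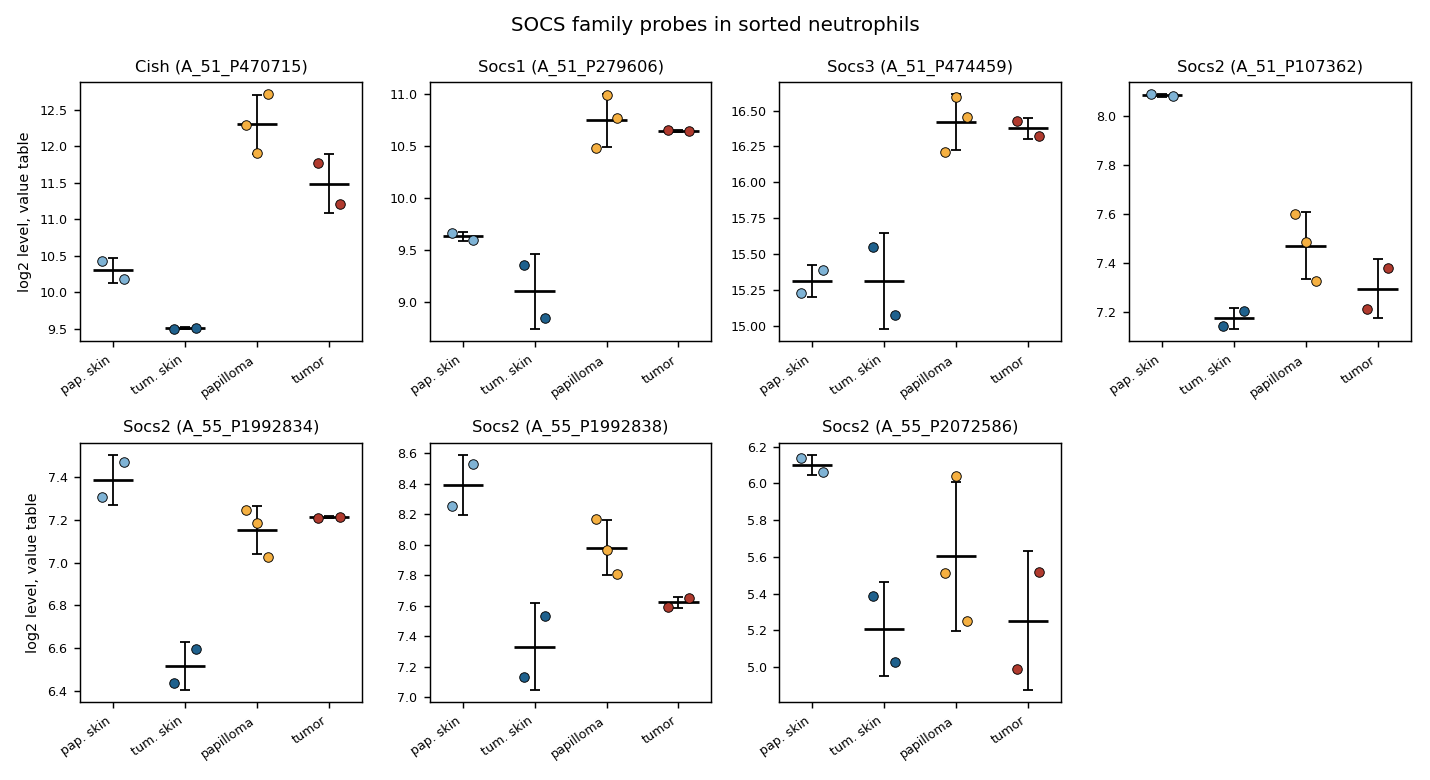
Log2 level in the value table (vertical axis, scale differing between panels) of the 7 SOCS family probes in papilloma skin, tumor skin, papilloma and tumor (horizontal axis), with a point per array, a line at the group mean and bars of 1 SD. For Cish, Socs1 and Socs3 all 5 lesion points lie above all 4 skin points, and for Socs2 the papilloma skin points lie above the tumor skin points on all 4 probes.

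These 3 probes were the members whose 5 lesion columns all lay above the 4 skin columns, an order that 7.49% of all probes showed, and no member showed the opposite order, which 4.65% of all probes did. The same order held for these 3 probes in the scanner files, where the share of all probes with that order was not counted. After quantile normalization the skin arrays read 9.17 to 10.34 and the lesion arrays 11.19 to 12.85 for Cish, against 6.78 to 9.84 and 9.85 to 11.11 for Socs1 and 14.81 to 15.66 and 16.06 to 16.59 for Socs3. The Socs1 ranges nearly touched. With quantile normalization and ComBat on the scanner files, the papilloma contrast was 2.64 for Cish (adjusted p = 0.0057), 2.51 for Socs1 (adjusted p = 0.0180) and 1.25 for Socs3 (adjusted p = 0.0312, all limma), and 15.3% of all probes were called. For Socs1, papilloma skin 1, the array with the lowest spike-in slope, read 7.49 in this setting and papilloma skin 2 read 8.95. The tumor contrast of Cish, Socs1 and Socs3 was 1.38, 0.80 and 0.81 in the same setting, none of them called (adjusted p = 0.125, 0.477 and 0.279, limma), beside 0.305% of all probes called. Of all 7 scanner file settings, normexp background correction was the only one to call a member in the tumor contrast, Cish at 1.01 (adjusted p = 0.0237, limma), beside 1.55% of all probes. Scaling to the 75th percentile in place of quantile normalization moved the median of all probes by -0.47 in the papilloma contrast. Over 21 alternatives the 3 genes stayed above 0 in both contrasts, but their size varied. The tumor contrast ranged from 1.01 to 2.32 for Cish, from 0.72 to 1.86 for Socs1 and from 0.33 to 1.73 for Socs3, and passed the threshold in 14, 10 and 8 of the 21. The papilloma contrast ranged from 1.79 to 3.14, from 0.99 to 2.51 and from 0.96 to 2.37, and passed in 18, 12 and 13.

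**Figure D3:**
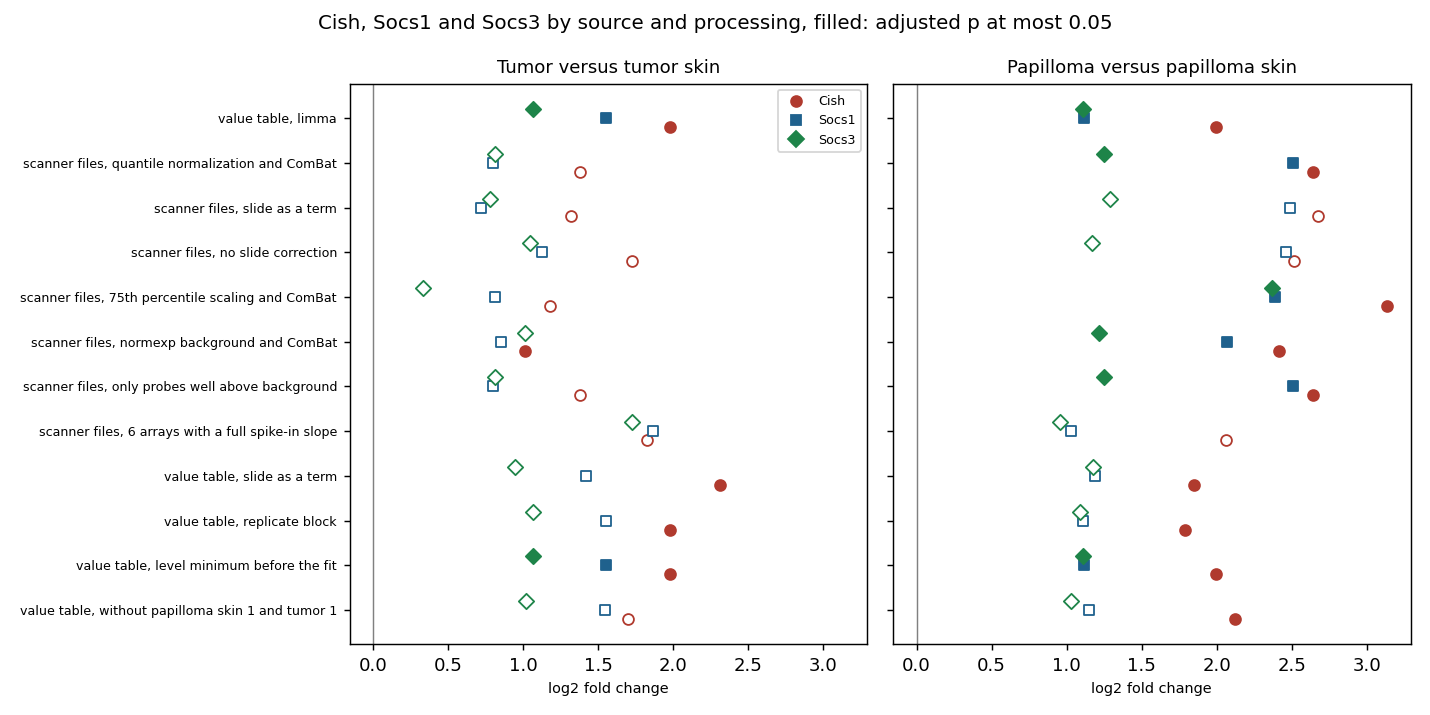
Log2 fold change (horizontal axis) of Cish, Socs1 and Socs3 in tumor versus tumor skin and papilloma versus papilloma skin under each source and processing (vertical axis), with filled symbols at an adjusted p of at most 0.05. All symbols lie above 0, and in the tumor panel Cish under normexp background correction is the only filled symbol among the scanner file settings.

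Socs2, known as a brake on growth hormone signaling, did not follow the other SOCS genes. In the value table it was higher in papilloma skin than in tumor skin on all 4 probes, and in the scanner files on 3 of them. Probe A_51_P107362 (mm9 chr10:94875066-94875125, minus strand, 10 spots per array) read 8.09 and 8.08 in papilloma skin, 7.14 and 7.20 in tumor skin, 7.60, 7.48 and 7.33 in papilloma, and 7.21 and 7.38 in tumor. Its papilloma skin columns were above all others. Probe A_55_P1992834 (chr10:94875187-94875246) read 7.31 and 7.47, 6.44 and 6.60, 7.25, 7.19 and 7.03, and 7.21 and 7.22 in the same order of groups, with the tumor skin columns below all others. Probe A_55_P1992838 (chr10:94875468-94875527) read 8.25 and 8.53, 7.13 and 7.53, 8.17, 7.96 and 7.81, and 7.59 and 7.65. In the scanner files this last probe went the other way, with 0.33 in tumor skin versus papilloma skin and 0.90 in papilloma versus papilloma skin (-1.06 and -0.41 in the value table). The dim probe A_55_P2072586 (chr10:94848005-94848064), which lies apart from the others, ranged from 4.99 to 6.14 with its highest value in papilloma skin.

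Tumor skin was lower than papilloma skin by 0.91 on the log2 scale on A_51_P107362 (SE 0.148, adjusted p = 0.0494, limma), the only member probe called in that contrast, beside 0.623% of all probes (0.235% lower), while 8 of 15 were under an unadjusted p of 0.05, as were 22.7% of all probes. That call was lost on leaving out any single array, with values from -0.94 to -0.88 and an adjusted p of 0.0643 to 0.222 in limma, and without papilloma skin 1 and tumor 1 it was -0.91 (adjusted p = 0.273, limma). Papilloma was lower than papilloma skin on the same probe by -0.62 (SE 0.135, adjusted p = 0.0349, limma), and tumor was higher than tumor skin on A_55_P1992834 by 0.70 (SE 0.147, adjusted p = 0.0255, limma). The first of these was lost without any of the papilloma skin, papilloma or tumor arrays (-0.68 to -0.54, adjusted p = 0.0540 to 0.137, limma) and the second without any of the 4 tumor and tumor skin arrays (0.62 to 0.78, adjusted p = 0.0608 to 0.138, limma). The probes of Socs2 differ in which contrast they passed. As the median of its 4 probes, tested over 34797 genes, Socs2 was lower in tumor skin than in papilloma skin by -0.89 (adjusted p = 0.0392, limma), beside 0.980% of genes called, and neither lesion contrast was called (0.41 and -0.43, adjusted p = 0.0997 and 0.0896, limma).

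Whether the lesion effect differed between stages was tested as the tumor contrast minus the papilloma contrast. None of the 15 probes was called, beside 0.0323% of all probes, and 4 of 15 were under an unadjusted p of 0.05 in limma, as were 14.7% of all probes. Of these, 3 were Socs2 probes, with differences of 0.74, 0.93 and 0.70 (adjusted p = 0.194, 0.148 and 0.285, limma), and 1 was the Stat3 probe A_51_P201480 with -0.66 (adjusted p = 0.330, limma). In the scanner files the stage difference of the third Socs2 probe, A_55_P1992838, had the opposite sign (-1.12), as had 6 of the 15 probes in all, Socs1 among them (-1.71 against 0.43). Between the lesions themselves, tumor versus papilloma, none of the 15 probes was called, beside 0.645% of all probes, with 3 under an unadjusted p of 0.05 in limma, as were 14.4% of all probes. Cish differed by -0.81 (95% interval -1.40 to -0.23, adjusted p = 0.221, limma), Socs1 by -0.10 (-0.55 to 0.36) and Socs3 by -0.04 (-0.46 to 0.38). Under 75th percentile scaling or normexp background correction of the scanner files the Cish difference was called (-1.70 and -1.37, adjusted p = 0.0371 and 0.0426, limma), beside 7.53% and 0.0308% of all probes. The former scaling moved the median of all probes by 0.35.

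Among the STAT genes, Stat6, the factor of IL-4 and IL-13 receptors, had the only probe called in any contrast. Probe A_52_P114494 (mm9 chr10:127097689-127097748, plus strand) read 11.38 and 11.79 in papilloma skin, 12.21 and 11.95 in tumor skin, 12.19, 12.33 and 12.43 in papilloma, and 12.52 and 12.34 in tumor. Papilloma skin was below all other columns, and papilloma exceeded it by 0.73 (SE 0.171, adjusted p = 0.0453, limma). This call was lost without any of the papilloma skin, papilloma or tumor arrays (0.52 to 0.93, adjusted p = 0.0540 to 0.212, limma). The other Stat6 probes were not called in that contrast, with 0.06 for A_52_P132761 and 0.39 for A_65_P00601 (95% interval -0.47 to 1.25). In the scanner files papilloma exceeded papilloma skin by 1.03 on A_52_P114494, 1.67 on A_52_P132761 and 0.85 on A_65_P00601 (adjusted p = 0.0621, 0.0620 and 0.217, limma). A_52_P132761 (chr10:127083983-127084042) had a mean of 9.47 ± 0.08 in tumor (SD, n = 2), against 8.89 ± 0.18 in papilloma (n = 3), 8.79 ± 0.30 in tumor skin (n = 2) and 8.82 ± 0.23 in papilloma skin (n = 2), with both tumor columns above all others. In the table its tumor contrast was 0.68 (95% interval 0.22 to 1.14, adjusted p = 0.0714, limma), not called. The scanner files gave another order for this probe, with 8.03 and 8.50 in tumor, 9.64 and 8.80 in tumor skin and 8.29 to 9.28 in papilloma. The tumor contrast was -0.96 there, also not called. A_65_P00601 (chr10:127095694-127095753) ranged from 8.64 to 10.05 with tumor above both skins and the other groups overlapping.

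**Figure D4:**
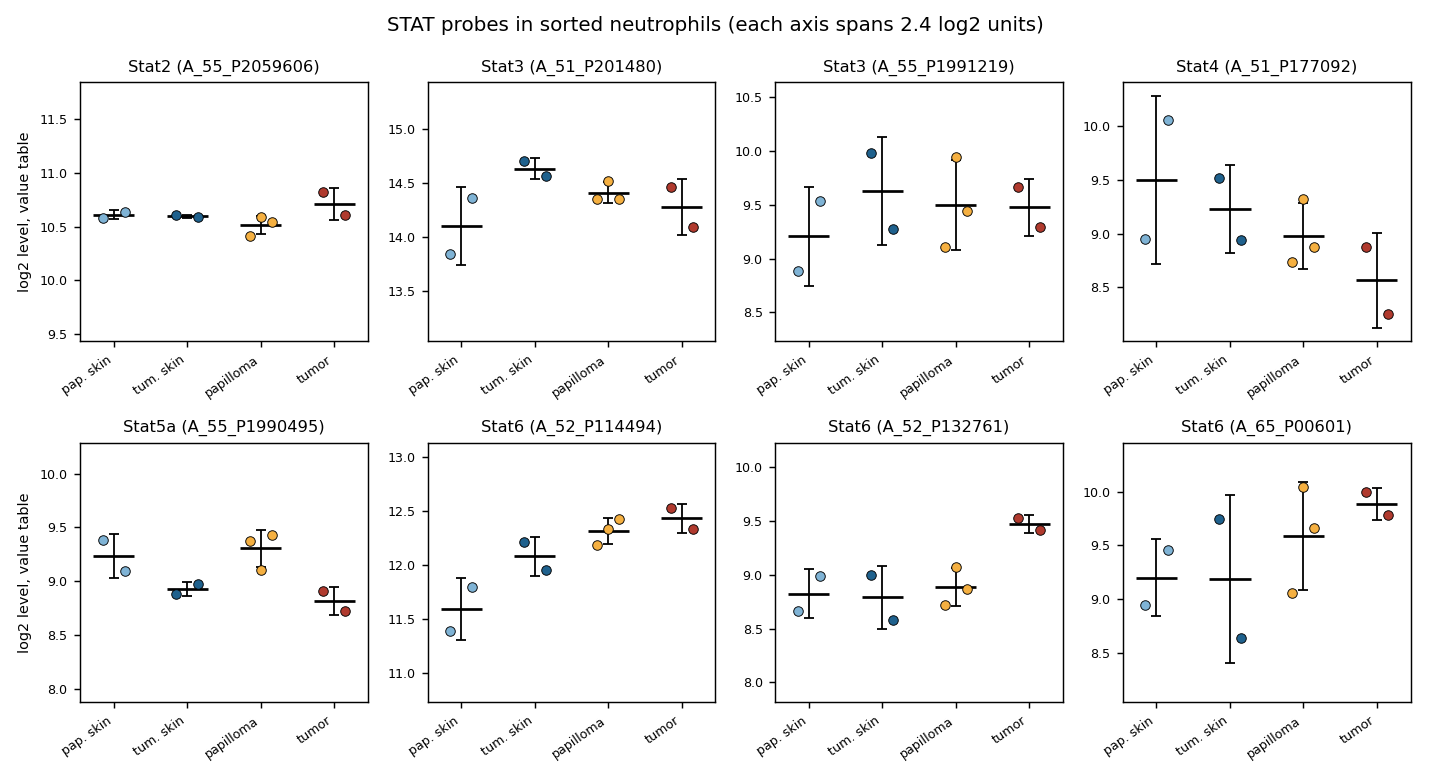
Log2 level in the value table (vertical axis, each spanning 2.4 units) of the 8 STAT probes in the 4 groups (horizontal axis), with a point per array, a line at the group mean and bars of 1 SD. The Stat2 points stay within 10.42 to 10.82, and papilloma skin is lowest on Stat6 probe A_52_P114494.

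Stat3, the factor of the IL-6 family and of G-CSF, was measured by 2 probes. A_51_P201480 (mm9 chr11:100749598-100749657, minus strand, 10 spots per array) read 13.84 and 14.36 in papilloma skin, 14.70 and 14.56 in tumor skin, 14.35, 14.52 and 14.36 in papilloma, and 14.46 and 14.09 in tumor. Tumor skin was above all other columns on this probe. On A_55_P1991219 (chr11:100759946-100760005) all groups overlapped, between 8.88 and 9.98. Stat2, a factor of type I interferon signaling, had the narrowest spread in the table, with group means of 10.52 to 10.71 (chr10:127729834-127729893), whereas in the scanner files tumor skin exceeded papilloma skin by 1.69 (-0.01 in the table), with no call. Stat5a, a factor of GM-CSF and IL-3 family receptors, read 9.38 and 9.09 in papilloma skin, 8.88 and 8.98 in tumor skin, 9.38, 9.11 and 9.43 in papilloma, and 8.91 and 8.73 in tumor (chr11:100746373-100746432). Both papilloma stage groups were thus above both tumor stage groups in the table, and no difference was called. The lesion groups did not overlap for 36.2% of all probes and the skin groups for 48.9%. In the scanner files the skins had the reverse order, with 7.46 and 8.45 in papilloma skin and 9.19 on both tumor skin arrays. Stat4, the factor of IL-12, read 8.95 and 10.05 in papilloma skin, 9.52 and 8.94 in tumor skin, 8.74, 9.32 and 8.87 in papilloma, and 8.88 and 8.26 in tumor (chr1:52163802-52163861). Its order of means fell from papilloma skin through tumor skin and papilloma to tumor, and every neighboring pair overlapped. In the scanner files with quantile normalization and ComBat, Stat4 was lower in papilloma than in papilloma skin by -1.54 (adjusted p = 0.0224) and Stat5a was higher by 1.34 (adjusted p = 0.0442, both limma), neither of which was called in the value table. This setting called 15.3% of all probes in that contrast. The Stat5a value of 7.46 was that of papilloma skin 1, the array with the lowest spike-in slope.

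Around these genes, 83 genes of the pathway in 9 lists were tested as the median over each gene's probes, over all 34797 genes. Tumors had 11 of 83 higher and 5 lower than tumor skin, beside 10.4% of genes called (6.17% higher, 4.22% lower), and the median log2 difference of the 83 was 0.20. Papillomas had 10 of 83 higher and 5 lower than papilloma skin, beside 7.56% of genes called (4.8% higher, 2.75% lower), with a median of 0.14. Without papilloma skin 1 and tumor 1, 9 and 6 of the 83 genes were called. The tumor count was 10 without tumor skin 1, 8 without tumor skin 2, 9 without tumor 1 and 5 without tumor 2, and the papilloma count was 5 without papilloma skin 1 and 9 without papilloma skin 2 or any papilloma array. The share of all genes called fell as well on each of these omissions. Named below are the genes of each list with the largest change among those called in either lesion contrast.

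Of 11 IL-6 family ligands and receptors, 2 were higher in each contrast and none was lower. Il6 itself read 8.38 and 7.97 in papilloma skin, 6.15 and 6.23 in tumor skin, 9.74, 10.17 and 9.33 in papilloma, and 7.20 and 8.05 in tumor. It was higher in lesion than in skin by 1.44 in the tumor contrast (adjusted p = 0.0343, limma) and by 1.57 in the papilloma contrast (adjusted p = 0.0204, limma). It was also the only pathway gene called between the lesions, -2.12 in tumor versus papilloma (adjusted p = 0.0237, limma), and between the skins, -1.99 in tumor skin versus papilloma skin (adjusted p = 0.0443, limma), beside 0.983% and 0.980% of genes called. Osmr, the oncostatin M receptor, was higher in papilloma by 1.48 (adjusted p = 0.0236, limma), and Il11ra1, an IL-11 receptor chain, in tumor by 0.69 (adjusted p = 0.0467, limma). The Il11ra1 mean was 9.51 in tumor skin and 10.20 to 10.58 in the other groups.

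Of 4 Janus kinases, Jak3, the kinase of common gamma chain receptors, was called in both contrasts and the other 3 in neither. It read 8.95 and 9.04 in papilloma skin, 9.17 and 9.04 in tumor skin, 9.82, 10.05 and 10.01 in papilloma, and 10.57 and 10.73 in tumor, a log2 fold change of 1.54 in the tumor contrast (adjusted p = 0.0014, limma) and 0.96 in the papilloma contrast (adjusted p = 0.0047, limma). Its lesion columns lay above its skin columns, and its tumor columns above its papilloma columns. Of 8 PIAS proteins and phosphatases, which also restrain STATs, 2 were higher in the tumor contrast and 1 in the papilloma contrast. These were Pias4 (0.90 and 1.23, adjusted p = 0.0487 and 0.0129, limma) and, in tumor, Pias2 (1.19, adjusted p = 0.0076, limma).

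Of 15 growth factor and common gamma or beta chain receptors, 2 were higher and 2 lower in the tumor contrast, and 3 were lower in the papilloma contrast. Il5ra, the IL-5 receptor, read 8.94 to 9.10 in the 4 skin columns and 7.01 to 7.43 in the 5 lesion columns and fell by 1.64 in tumor and fell by 1.95 in papilloma (adjusted p = 0.0014 and 0.0003, limma). Il5ra is also an eosinophil marker. Il2ra was higher in tumor than in tumor skin by 1.31 (adjusted p = 0.0314, limma), with a mean of 5.90 in tumor skin and 7.21 to 7.53 in the other groups. Il2rb was lower in papilloma than in papilloma skin by 1.5 (adjusted p = 0.0266, limma), with a mean of 8.68 in papilloma skin and 7.06 to 7.31 in the other groups. For Il2rb, 4 of the scanner file settings gave the opposite sign. Of 11 receptors of the interferon, IL-4, IL-10 and IL-12 families, Il4ra, which signals through Stat6, was higher in papilloma by 0.77 (adjusted p = 0.0452, limma), and no other was called in either contrast. The Il4ra mean was 9.06 in papilloma skin and 9.83 to 10.13 in the other groups.

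Known targets of the STATs moved both ways. Of 14 STAT3 targets, 1 was higher and 1 lower in tumor and 2 were higher in papilloma. Il1rn, the IL-1 receptor antagonist, was higher in both (1.52 and 1.76, adjusted p = 0.0076 and 0.0028, limma), and Saa3, an acute phase protein, in papilloma (1.08, adjusted p = 0.0452, limma). Lcn2, an iron-sequestering granule protein, was lower in tumor than in tumor skin by 1.46 (adjusted p = 0.0122, limma). The Lcn2 mean was 16.77 in tumor skin and 15.22 to 15.37 in the other groups. Of 7 STAT5 targets, 2 were higher in tumor, and 2 were higher and 1 lower in papilloma. Bcl2l1, which encodes the survival protein Bcl-xL, rose from 10.17 and 10.73 to 12.44, 12.64 and 12.37 in the papilloma stage and from 11.18 and 11.13 to 12.83 and 12.63 in the tumor stage (2.03 and 1.57, adjusted p = 0.0008 and 0.0043, limma), with Ccnd1, cyclin D1, higher in papilloma (2.18, adjusted p = 0.0210, limma).

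Of 10 STAT6 targets, 2 were higher and 2 lower in tumor, and 2 were higher and 1 lower in papilloma. Retnla, a resistin-like protein, read 12.91 to 13.69 in the skin columns and 7.61 to 8.91 in the lesion columns and fell by 4.98 in the tumor contrast and fell by 4.95 in the papilloma contrast (adjusted p = 0.0003 and 0.0001, limma). Chi3l3, a chitinase-like protein, fell by 2.30 in tumor (adjusted p = 0.0304, limma) and Arg1, arginase, rose by 3.45 (adjusted p = 0.0127, limma). Genes of the same list thus moved in opposite directions in the same arrays.

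**Figure D5:**
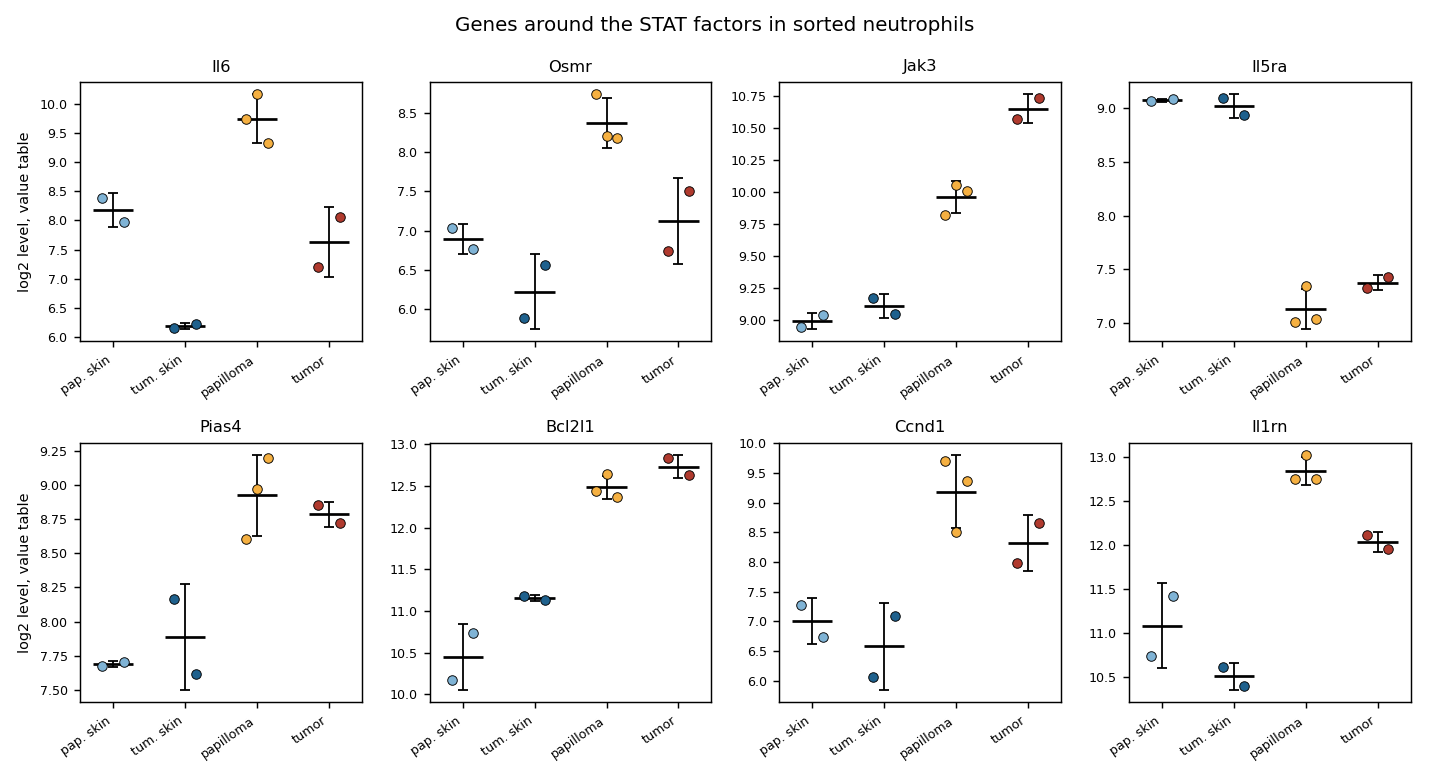
Log2 level in the value table (vertical axis, scale differing between panels) of 8 pathway genes in the 4 groups (horizontal axis), with a point per array, a line at the group mean and bars of 1 SD. Jak3, Bcl2l1 and Il1rn have all 5 lesion points above all 4 skin points, Il5ra has them below, and Il6 is lowest in tumor skin.

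Markers of other cell types moved in the same contrasts, and their part in the results was not tested. Of 6 eosinophil markers, 4 were lower in each lesion contrast, with a log2 summed level of 12.52 to 13.78 in the skin columns and 9.75 to 10.65 in the lesion columns, while Epx, which defines the type, was well above background on only 3 of 9 arrays. On papilloma skin 1, tumor skin 1 and tumor 1 at least 90.7% of all probes passed that flag. Of 8 keratinocyte markers, 2 were higher in tumor and 1 in papilloma (summed level 11.69 to 12.84 in skin and 13.18 to 15.22 in lesions). Of 5 endothelial markers, 1 and 3 were higher. Of 9 neutrophil markers, 4 and 3 were called lower, among them the granule genes Camp and Ngp in both contrasts. Ly6g was called in tumor (-2.09, adjusted p = 0.0085, limma) and had the same direction in papilloma without a call (-1.08, adjusted p = 0.0720, limma). The summed level of the 9 was 19.90 to 20.11 in skin and 19.63 to 19.84 in lesions. Red blood cell genes went apart between stages, 3 of 3 higher in tumor and 2 of 3 lower in papilloma. Of 10 T cell and innate lymphocyte markers, 1 was higher and 1 lower in tumor and 2 were lower in papilloma. Of 7 dendritic cell markers, 2 and 1 were lower, of 7 monocyte and macrophage markers 1 was lower in each and 1 higher in papilloma, and of 6 fibroblast markers 1 was lower in tumor. None of 6 mast cell markers was called in either contrast by limma (2 and 1 under an unadjusted p of 0.05).

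Genes of like pattern were sought for the 3 members with the widest range of group means, as the smallest root mean square difference of 9 centered log2 values among 18816 genes. The range was 2.79 for Cish, 1.65 for Socs1 and 1.11 for Socs3. Nearest to Cish were Pcdh12 (0.190), Itpr1 (0.249) and Ccl4 (0.260), nearest to Socs1 were Niacr1 (0.123), Basp1 (0.128) and F7 (0.133), and nearest to Socs3 were an unnamed probe (A_55_P2075000, 0.0652), Nxf1 (0.0897) and Fndc3b (0.106). These distances describe 9 arrays that share the slides and the lesion and skin groups.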

How the data were processed

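Neutrophil RNA of 9 samples was measured on one-color Agilent mouse arrays (design build mm9) on 3 slides. The authors deposited a table with 1 log2 value per probe and array. Per their methods, arrays were quantile normalized with limma and ComBat took out the chip, but whether the table had gone through both steps is not stated, so that degrees of freedom that ComBat takes up may not be counted. They also deposited scanner files with fluorescence intensity per spot, which Feature Extraction 10.7.3.1 had background-subtracted per the file headers, not scaled between arrays. The table was fitted with limma 3.58.1 (R 4.3.3) with the 4 groups as terms and 5 residual degrees of freedom. The number of arrays limits the precision. Alternatives used the scanner files in 7 settings (59305 spots, 55155 probes, ComBat written for this purpose) or changed the fit of the table, 14 besides leaving out each array. The script for the tests was tested on simulated data. Genes without a call are given by their levels, and pathway genes by the 3 largest changes per list. Members and lists were chosen with earlier results of these data known. Python 3.11.15 and matplotlib 3.10.9 drew the plots. The list of further STAT and SOCS genes is not reported here.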

Additional observations from a re-analysis of the deposited data

How the results depend on the processing

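Of the member probes, 5 were called for papillomas against papilloma skin, 4 for tumors against tumor skin, 1 in tumor skin versus papilloma skin, and 0 in tumor versus papilloma and in the difference of the lesion effects. For papilloma versus papilloma skin and for tumor versus tumor skin, respectively, the scanner files gave 6 and 0 with quantile normalization and ComBat, 9 and 0 with 75th percentile scaling, 7 and 1 with normexp background correction, 6 and 0 with bright probes only, and 0 and 0 with slide as a term, with no slide correction and with the 6 arrays of full spike-in slope. The share of all probes called moved as well, to 15.3% and 0.305%, 41.4% and 0.107%, 15.3% and 1.55%, and 20.6% and 0.997% in the first 4 of these settings, and to 0% in the last 3, where no probe of the array was called and the 0 says nothing of the members. With slide as a term on the value table the shares were 1.92% and 0.381%, and on leaving out arrays they fell too. On the value table the counts were 1 and 1 with slide as a term, 1 and 0 without papilloma skin 1 and tumor 1, 3 and 3 when calls also needed a log2 difference of 1 and a level of 6, and 3 and 3 with genes as the unit. Leaving out 1 array gave 1 to 5 and 1 to 4. In tumor skin versus papilloma skin the count was 0 in every alternative except genes as the unit (1), and 0 to 0 on leaving out 1 array. In tumor versus papilloma it was 1 with 75th percentile scaling and with normexp background correction, beside 7.53% and 0.0308% of all probes, and 0 otherwise. The difference of the lesion effects gave 0 throughout. In all 7 scanner file settings no probe of the array was called for that difference, so the 0 there says nothing of the members. Between the skins these settings called at most 0.00181% of all probes. Between the lesions the settings that called no member called at most 0.00277% of all probes, so a 0 there says little.

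Of the 83 pathway genes, 16 were called against tumor skin in tumors and 15 against papilloma skin in papillomas. Papillomas come first in what follows. The scanner files gave 26 and 2 with quantile normalization and ComBat, 42 and 2 with 75th percentile scaling, 31 and 8 with normexp background correction, 28 and 3 with bright probes only, and 0 and 0 in the 3 settings that called no gene at all. Of all genes, 16.5% and 0.825%, 43.2% and 0.229%, 16.6% and 2.22%, and 20.9% and 1.43% were called in the first 4 settings. With slide as a term on the value table, 2.55% and 0.601% of all genes were called, and on leaving out an array of the contrast the share fell too. The value table gave 7 and 3 with slide as a term, 6 and 9 without papilloma skin 1 and tumor 1, and leaving out 1 array gave 5 to 12 and 5 to 14. The cause of these shifts was not tested.

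Deviations of arrays with the same replicate number from their group means had correlations from -0.957 to 0.376. These cannot decide whether arrays were paired. In groups of 2 arrays the deviations mirror each other, and a slide correction before deposit would take out what arrays of a slide share. The numbers were not taken as pairs. With the replicate number as a block, member probes called were 1, 1 and 0 in papilloma versus papilloma skin, tumor versus tumor skin and tumor skin versus papilloma skin, and pathway genes called were 4 and 5. The block called 1.05% of all probes and 1.33% of all genes in papilloma versus papilloma skin, and 1.42% and 1.79% in tumor versus tumor skin. Cish was called under the block in both (1.79 and 1.98, adjusted p = 0.0251 and 0.0244, limma).

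The 35 differences checked one by one were those called in the value table for member probes and, for the named pathway genes, between lesion and skin, and 34 of them kept their direction throughout. This leaves out member differences that were not called, some of which had the opposite sign in the scanner files. Il2rb in papilloma versus papilloma skin turned to 0.12 with quantile normalization and ComBat, 0.13 with slide as a term, 0.25 with no slide correction and 0.12 with bright probes only, all from the scanner files.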
